A study of Mus musculus with 9 samples.

Results

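Mitosis and the G2/M transition were followed through 40 genes whose products build the spindle, hold and separate the chromosomes, check their attachment and divide the cell. The genes were listed by symbol for their roles, with no threshold on a measured value, though with earlier results of these data known. All 40 were found among the 54453 gene rows of the deposited table. RNA had been measured by mRNA sequencing of polyA RNA in 9 whole pancreatic tumors of the KPC strain, a mouse model of pancreatic ductal adenocarcinoma. The tumors numbered 2, 3, 6 and 9, 4 in all, were labelled Scrib WT with the genotype KPF/+C, and 5, numbered 7, 14, 15, 18 and 23, were labelled Scrib null with the genotype KPF/+CSF/F. Both groups share the KPF/+C alleles. They differ in the labels by SF/F at Scrib, which encodes a scaffold protein of apical-basal polarity. The age of the mice, the promoter that drives Cre, and whether each tumor came from a separate mouse are not given in the sources used. P-values therefore set the difference between groups against the spread among these tumors only. That spread may be technical in part and may not be the spread among mice. A tumor is named below by its label and number, as in null 14.

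Cells enter mitosis when cyclin B and Cdk1 become active, attach their chromosomes to the spindle through kinetochores, and leave when the anaphase-promoting complex destroys cyclin B and securin. The genes for this work are switched on late in the cell cycle. MuvB complexes bind their promoters at a cell cycle homology region, repress them in resting cells together with E2F4 and p130, and activate them in dividing cells together with B-Myb and then Foxm1. Mki67, the gene of the Ki-67 antigen, and Top2a are widely used to mark dividing cells in tumors.

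Many of the genes have letters in common in their promoters. RefSeq promoter stretches on GRCm38.p6, from 250 bases before to 50 after a transcription start, were matched by symbol for 33 of the 40 genes. Parts of 5 are shown as examples that hold the letters of the cell cycle homology region upstream of the start. Other genes, Ect2 and Kif2c among them, also hold these letters upstream and are not shown. Capitals mark TTTGAA and CCAAT on either strand, so that TTCAAA and ATTGG are the same letters read from the other strand. The stretches are Top2a at chr11:99024190-99024309 (minus strand), Mki67 at chr7:135716380-135716499 (minus strand), Cdc20 at chr4:118437353-118437463 (minus strand), Cdk1 at chr10:69352939-69353032 (minus strand) and Kif11 at chr19:37376262-37376381 (plus strand).
Top2a: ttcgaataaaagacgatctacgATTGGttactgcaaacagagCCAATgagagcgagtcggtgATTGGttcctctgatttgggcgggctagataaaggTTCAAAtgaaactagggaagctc
Mki67: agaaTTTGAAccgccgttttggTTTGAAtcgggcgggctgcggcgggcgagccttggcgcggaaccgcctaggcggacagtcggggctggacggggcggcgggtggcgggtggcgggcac
Cdc20: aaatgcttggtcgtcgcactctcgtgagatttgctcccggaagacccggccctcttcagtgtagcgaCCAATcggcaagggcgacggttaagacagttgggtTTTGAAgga
Cdk1: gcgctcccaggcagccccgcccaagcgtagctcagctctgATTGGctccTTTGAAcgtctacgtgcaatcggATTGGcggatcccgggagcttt
Kif11: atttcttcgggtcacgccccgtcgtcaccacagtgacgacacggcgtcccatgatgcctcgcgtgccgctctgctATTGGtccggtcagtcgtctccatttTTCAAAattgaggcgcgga

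The letters TTTGAA, on either strand, stood in the promoters of 25 of 33 genes (75.8%), against 17.9% of all 32851 promoters in the table and 12.5% of the 14803 promoters of genes tested here. In 23 genes a match lay within 50 bases of a start. CCAAT stood in 26 of 33 genes (78.8%), against 37.4% of all promoters and 37.1% of those of tested genes. Both stood together in 22 genes (66.7%), against 7.0% and 5.0%. The variant TTTAAA, which shares no match with TTTGAA, was present in 9 genes (27.3%), against 13.2% and 9.3%. The E2F letters TTTCGCGC were present in 1 gene (3.0%), Cdk1, and TTTGGCGC in 0 genes. The stretch shown of Top2a holds 3 copies of CCAAT. That of Cdk1 ends at base −27 from the start and leaves out another TTTGAA at −15. The stretch shown of Mki67 holds 2 copies of TTTGAA, and its 3 copies of CCAAT lie further upstream in the window. This window held no TTTGAA in Ccnb1, Birc5, Nek2, Melk, Bub1, Cenpe, Nuf2 and Nusap1, and in 3 of these, Melk, Nuf2 and Nusap1, none of the letters searched. Foxm1, Ccna2, Cdc25c, Aurkb, Tpx2, Dlgap5 and Kif20a had no entry. These matches describe letters and are not binding measurements.

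Estimated counts summed to between 10145830 and 27596832 per tumor. All 40 genes passed the filter on low counts, and the lowest count of any of them was 38, for Cdc25c in WT 2. Scrib itself had 44.1 to 88.5 CPM (counts scaled to the size of the library, TMM-adjusted) in the WT tumors and 36.9 to 102 CPM in the null tumors, and its groups overlapped (log2 fold change −0.23, SE 0.31, edgeR adjusted p = 0.712). The labels do not say which exons the null allele lacks, and the count covers the whole gene, so these values do not check the labels. Null 7 lay at the end of the first principal component and WT 3 at the end of the second, which held 29.6% and 26.4% of the variance. Epithelial markers were present in every tumor, with 14 genes summing to 9080 to 13300 CPM in WT and 8750 to 14600 CPM in null tumors, and acinar markers summed to 20.6 to 289 and 8.2 to 269 CPM.

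The 40 genes were not called different between null and WT tumors. Adjusted p-values from edgeR's quasi-likelihood test over 16169 genes ran from 0.22 for Foxm1 to 0.963 for Birc5, and 0 of 40 passed 0.05. Among all genes 0.0% were called higher and 0.0124%, which is 2 genes, were called lower. At an unadjusted p under 0.05, 4 of 40 genes (10.0%) were higher in null tumors, namely Foxm1, Nek2, Plk1 and Top2a, and 0 were lower. The background at that threshold was 7.64% of all genes higher and 10.0% lower, so the members' share lay near it in this fit. All null tumors exceeded all WT tumors for 1 gene, Foxm1 (2.5%), against 3.42% of all genes, and no member had every null tumor lower, against 3.49%. The direction was uneven: 34 of 40 fold changes (85.0%) were above 0, against 47.8% of all genes tested, and their median log2 fold change was 0.35, against −0.035. In 19 genes the fold change was smaller than its standard error. Leaving out null 14 lowered the count at unadjusted p under 0.05 to 1, the count above 0 to 25 and the median to 0.095. Leaving out WT 3 lowered the count at unadjusted p to 1 and the median to 0.26. Without WT 9 or null 15 the count at unadjusted p was 2, and without WT 2 or null 18 it was 5. Without WT 6 it was 6 and with no filter on low counts it was 7. The background moved as well. All genes higher were 984 of 16675 without WT 3, 1024 of 16189 without null 14 and 1321 of 16567 without WT 9. They were 1206 of 15798 without null 15, 1786 of 16665 without WT 2 and 917 of 15863 without null 18. They were 791 of 16404 without WT 6 and 1719 of 30590 with no filter. With limma-voom 1 was higher and 1 lower, against 1123 and 1388 of all 16169 genes, and 26 members were above 0.

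**Figure D1:**
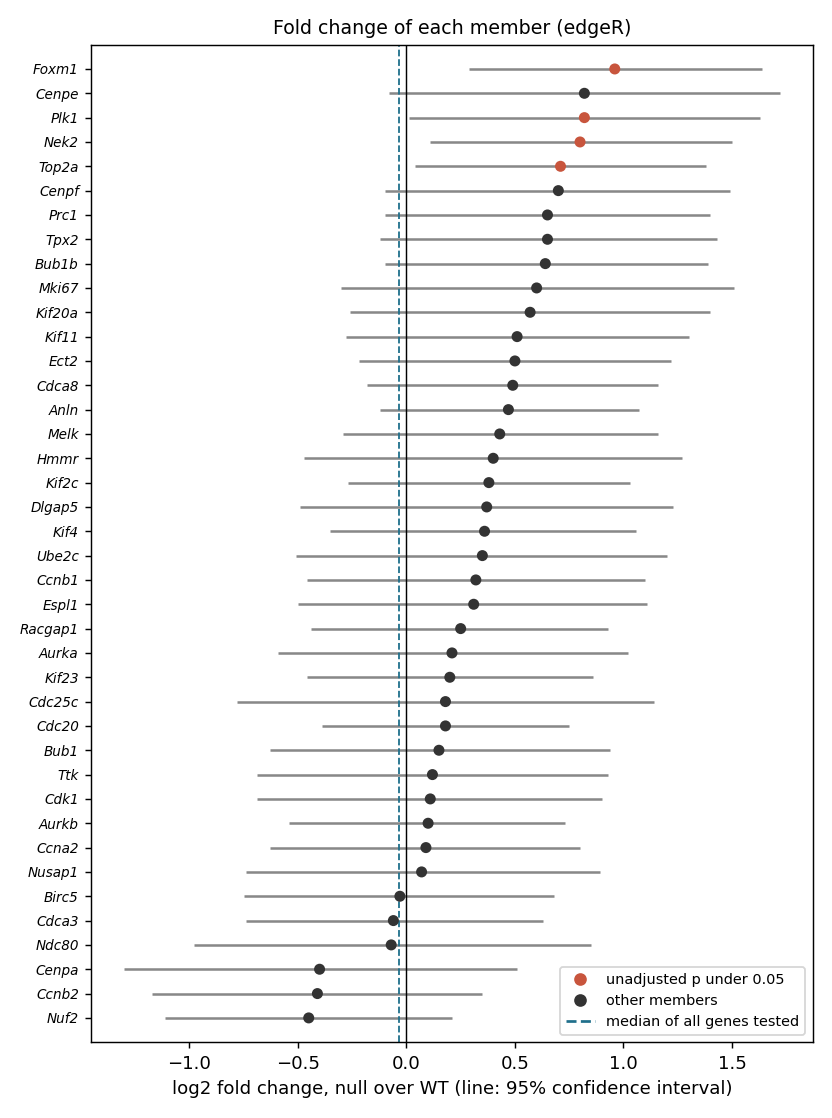
Log2 fold change of null over WT for each of the 40 genes (points) with its 95% confidence interval from edgeR (lines), sorted by size; red points have an unadjusted p under 0.05. Foxm1 is highest at 0.96 and Nuf2 lowest at −0.45, and 36 of the intervals include 0.

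The level of the genes varied widely between tumors of a group. The mean log2 CPM of the 40 genes was 4.55, 4.22, 5.07 and 4.55 in WT 2, 3, 6 and 9 and 4.86, 5.67, 5.00, 4.56 and 4.46 in null 7, 14, 15, 18 and 23. Null 14 stood highest and WT 3 lowest, WT 6 exceeded every null tumor but null 14, and the groups overlapped. Group means were 4.60 ± 0.35 (SD, n = 4) and 4.91 ± 0.48 (SD, n = 5), a difference of 0.31 that is smaller than the spread among null tumors. Null 14 had the highest value for 31 of the 40 genes and WT 6 for the other 9. WT 3 had the lowest value for 21 genes, WT 2 for 7, null 23 for 6 and null 18 for 4. Without null 14 the difference in mean level was 0.126. Without both null 14 and WT 3 it was 0.001, the median log2 fold change was 0.0 and 20 of 40 genes were above 0. Those tumors were chosen for their extreme levels after the data were seen, which shrinks a difference by construction.

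**Figure D2:**
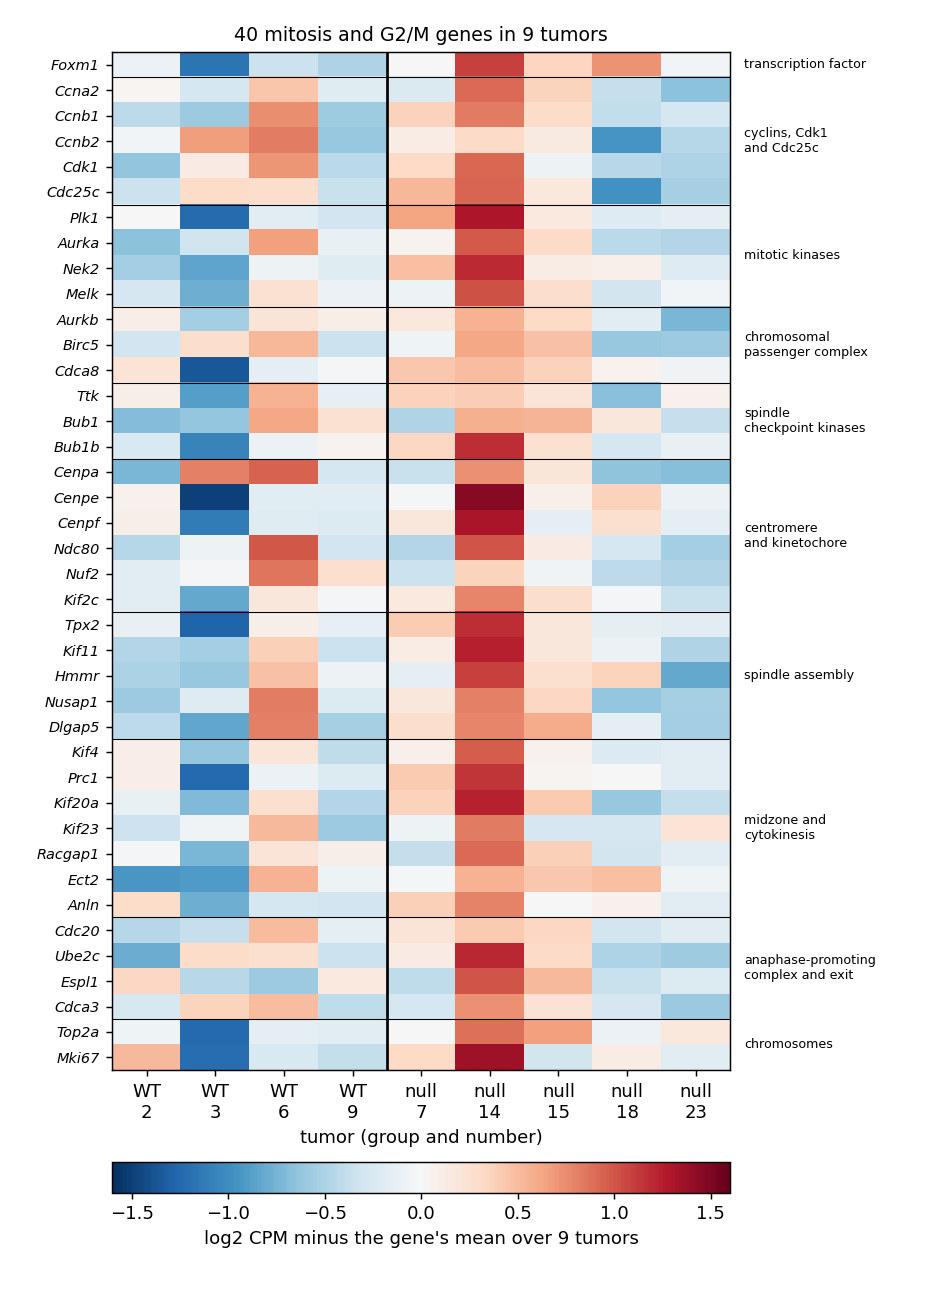
Log2 CPM of each of the 40 genes (rows, grouped by role) in each of the 9 tumors (columns), minus the gene's mean over tumors; red is above the mean and blue below. The null 14 column is red throughout, and the WT 3 column is blue for most genes but red for Ccnb2, Cdk1, Cdc25c, Birc5, Cenpa, Ube2c and Cdca3.

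Foxm1, the forkhead transcription factor that activates late cell cycle genes (chromosome 6, 128362967 to 128376146, plus strand, GRCm38), had the largest fold change. It had 35.7, 16.8, 30.1 and 26.9 CPM in WT 2, 3, 6 and 9 and 38.0, 81.6, 48.3, 62.6 and 36.9 CPM in null 7, 14, 15, 18 and 23; values below follow the same order. Every null tumor lay above every WT tumor, though null 23 and WT 2 were close. Means were 27.4 ± 7.92 CPM (SD, n = 4) and 53.5 ± 18.8 CPM (SD, n = 5), and the log2 fold change was 0.96 (SE 0.30), a 95% interval of 1.23-fold to 3.11-fold. It did not pass adjustment (edgeR p = 0.00912, adjusted p = 0.22; exact two-sided permutation p = 0.0238). Over the alternatives run the adjusted p ranged from 0.0625 with DESeq2 to 0.756 with the non-epithelial level as a covariate. Foxm1 shares exon bases with Tex52 and Gm44596 on its own strand. Top2a, the only other member with such an overlap, shares them with Gm23451.

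**Figure D3:**
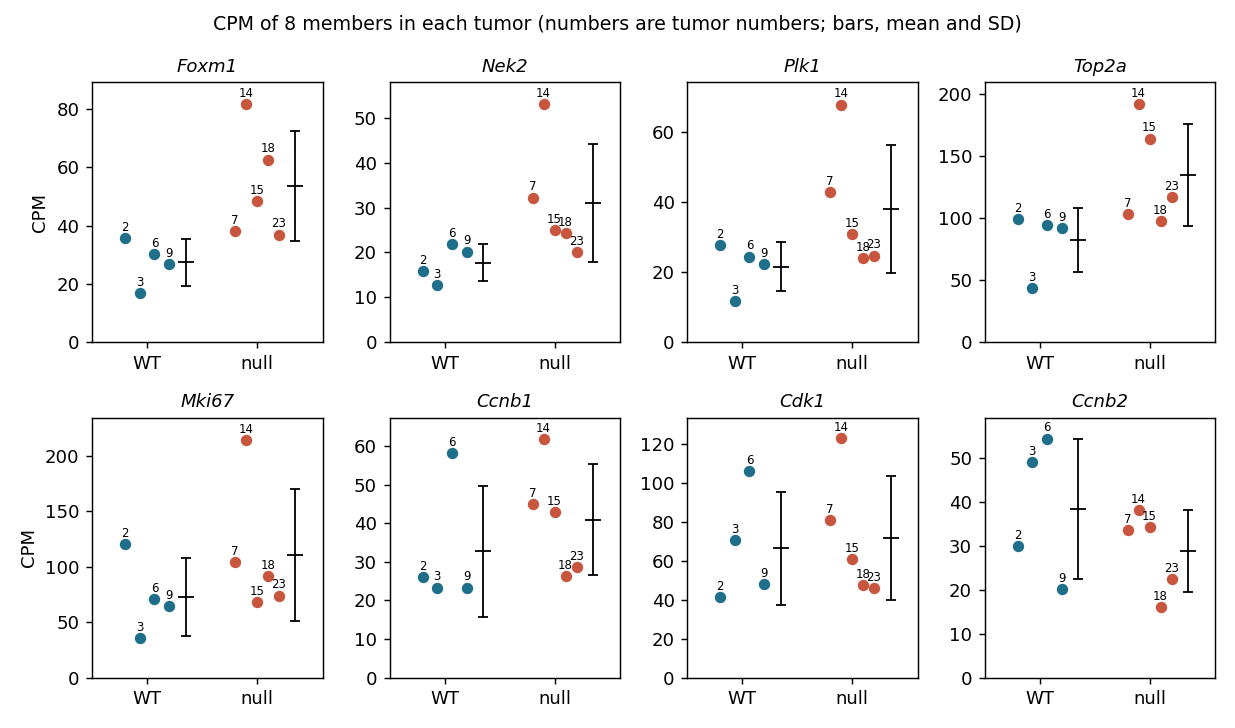
CPM of 8 genes in each tumor (points, labelled by tumor number; blue, WT; red, null) with the mean and SD of each group (black). Foxm1 is the gene among them whose groups do not overlap, and tumor 14 is highest in all but Ccnb2, where WT 6 is.

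No cyclin gene, nor the kinase they drive, passed the test. Of 5 fold changes in this group 4 were above 0, with a median of 0.11. Cdk1, the kinase that drives entry into mitosis (chromosome 10, 69335146 to 69352938), had 41.6, 70.8, 106 and 48.0 CPM in WT and 80.9, 123, 61.1, 47.5 and 45.9 CPM in null tumors. Its means were 66.5 ± 29.0 and 71.6 ± 31.9 CPM (SD, n = 4 and 5), and the groups overlapped across most of their range (log2 fold change 0.11, SE 0.36, edgeR adjusted p = 0.895). The interval of that difference, 0.619-fold to 1.87-fold, leaves room for a change in either direction. Ccnb1, which encodes cyclin B1 (chromosome 13, 100778650 to 100786570), had 26.1, 23.3, 58.2 and 23.3 CPM in WT and 45.0, 61.8, 42.8, 26.3 and 28.6 CPM in null tumors. WT 6 stood far above the other WT tumors and exceeded 4 of the 5 null tumors (log2 fold change 0.32, SE 0.35, edgeR adjusted p = 0.637). Ccnb2, which encodes cyclin B2 (chromosome 9, 70407692 to 70421547), had 29.9, 48.9, 54.3 and 20.2 CPM in WT and 33.6, 38.1, 34.2, 16.0 and 22.3 CPM in null tumors. Here WT 3 was among the highest tumors, unlike for Foxm1, and the fold change was below 0 (log2 −0.41, SE 0.34, edgeR adjusted p = 0.529). Ccna2, which encodes cyclin A2, was at 46.5 ± 11.0 and 49.4 ± 23.0 CPM. Cdc25c, the phosphatase that activates Cdk1, was at 4.63 ± 1.17 and 5.27 ± 2.68 CPM, the lowest of the 40 genes.

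Mitotic kinases held 2 of the 4 genes with an unadjusted p under 0.05. All 4 kinases in the group had fold changes above 0, with a median of 0.62. Nek2, a kinase of centrosome separation (chromosome 1, 191821444 to 191833050), had 15.8, 12.8, 21.9 and 20.2 CPM in WT and 32.2, 53.1, 25.0, 24.3 and 20.0 CPM in null tumors. Null 7, 14, 15 and 18 lay above all WT tumors, while null 23 lay below WT 6 and WT 9. The log2 fold change was 0.80 (SE 0.31, edgeR p = 0.0272, adjusted p = 0.245; exact two-sided permutation p = 0.0476). Plk1, the polo-like kinase that acts from mitotic entry to cytokinesis (chromosome 7, 122159439 to 122169873), had 27.7, 11.7, 24.4 and 22.3 CPM in WT and 42.8, 67.7, 30.8, 24.0 and 24.7 CPM in null tumors. Null 7, 14 and 15 were above every WT tumor and null 18 and 23 were not. The log2 fold change was 0.82 (SE 0.37, edgeR p = 0.0482, adjusted p = 0.28; exact two-sided permutation p = 0.111). Means for Plk1 were 21.5 ± 6.93 and 38.0 ± 18.2 CPM (SD, n = 4 and 5). Melk, a kinase high in dividing cells, had a log2 fold change of 0.43 (SE 0.33). Aurka, which encodes the spindle pole kinase Aurora A, was at 0.21 (SE 0.36). Plk1 and Nek2 each share exon bases with a gene on the other strand, as do 11 of the 40 genes in all. The labels do not say if libraries were stranded.

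Chromosomal passenger genes encode the Aurora B complex, which corrects faulty attachments. Cdca8, the borealin subunit (chromosome 4, 124918465 to 124939311), had 23.9, 7.99, 18.6 and 20.3 CPM in WT and 27.6, 29.0, 26.5, 21.3 and 19.8 CPM in null tumors. WT 3 was far below every other tumor, and WT 2 lay above null 18 and null 23 (log2 fold change 0.49, SE 0.30, edgeR adjusted p = 0.401). Aurkb, the kinase itself (chromosome 11, 69045647 to 69051664), had 20.9, 13.4, 22.6 and 20.9 CPM in WT and 21.9, 28.8, 24.4, 17.3 and 11.7 CPM in null tumors. Its highest and lowest tumors were both null (log2 fold change 0.10, SE 0.29, edgeR adjusted p = 0.878). Birc5, which encodes survivin, was at 32.2 ± 9.84 and 31.5 ± 12.4 CPM (SD, n = 4 and 5). The 3 members listed for this complex, Cdca8, Aurkb and Birc5, thus had log2 fold changes from −0.03 to 0.49.

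Spindle checkpoint kinases delay anaphase until all chromosomes are attached, and all 3 had fold changes above 0, with a median of 0.15. Bub1b, which encodes BubR1 (chromosome 2, 118598211 to 118641591), had 26.4, 14.8, 29.2 and 32.3 CPM in WT and 39.1, 70.6, 37.0, 25.6 and 28.8 CPM in null tumors. Null 7, 14 and 15 exceeded the WT range and null 18 and 23 lay within it (log2 fold change 0.64, SE 0.34, edgeR adjusted p = 0.331). Bub1 (chromosome 2, 127801122 to 127831865) had 10.0, 10.6, 24.9 and 19.3 CPM in WT and 11.6, 24.0, 23.8, 18.5 and 12.5 CPM in null tumors. WT 6 was the highest tumor for Bub1, and the groups covered nearly the same range (log2 fold change 0.15, SE 0.35, edgeR adjusted p = 0.834). Ttk, which encodes the kinase Mps1, was at 6.23 ± 2.42 and 6.79 ± 1.75 CPM.

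Centromere and kinetochore genes were split, with 3 of 6 above 0. Cenpe, a kinetochore motor (chromosome 3, 135212537 to 135273611), had 22.2, 7.47, 18.9 and 18.8 CPM in WT and 20.7, 58.4, 22.3, 27.4 and 19.8 CPM in null tumors. Null 14 was more than 2 times the next null tumor, and the other null tumors lay near WT 2 (log2 fold change 0.82, SE 0.41, edgeR adjusted p = 0.316). Cenpf, a large protein of the outer kinetochore (chromosome 1, 189640606 to 189688086), had 26.2, 11.2, 21.3 and 21.0 CPM in WT and 27.8, 60.5, 22.2, 29.2 and 22.0 CPM in null tumors. The same tumors, null 14 and WT 3, were at its ends (log2 fold change 0.70, SE 0.36, edgeR adjusted p = 0.326). Kif2c, a microtubule depolymerase, had a log2 fold change of 0.38 (SE 0.29). Cenpa, the histone of centromeric chromatin, was at 50.4 ± 26.2 and 38.3 ± 17.4 CPM (log2 fold change −0.40, SE 0.41). Nuf2 and Ndc80 form one complex that grips microtubules. Nuf2 was at 15.2 ± 5.16 and 11.1 ± 2.92 CPM (log2 fold change −0.45, SE 0.30), and Ndc80 at 15.6 ± 8.25 and 14.9 ± 7.67 CPM.

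Spindle assembly genes had 5 of 5 fold changes above 0, with a median of 0.40. Tpx2, which activates Aurora A on the spindle (chromosome 2, 152847964 to 152895321), had 38.9, 17.4, 45.2 and 38.5 CPM in WT and 56.4, 95.8, 47.8, 38.3 and 37.4 CPM in null tumors. Null 7, 14 and 15 exceeded every WT tumor, and null 18 and 23 lay just below WT 9 (log2 fold change 0.65, SE 0.35, edgeR adjusted p = 0.34). Kif11, the motor that pushes the spindle poles apart (chromosome 19, 37376403 to 37421859), had 19.8, 18.9, 35.9 and 21.6 CPM in WT and 29.9, 65.0, 31.1, 25.7 and 19.7 CPM in null tumors. WT 6 and null 14 each stood apart from the rest of their group (log2 fold change 0.51, SE 0.36, edgeR adjusted p = 0.457). The log2 fold changes of the microtubule-binding proteins Hmmr, Dlgap5 and Nusap1 were 0.40, 0.37 and 0.07, with SE of 0.39, 0.39 and 0.37.

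Midzone and cytokinesis genes had 7 of 7 fold changes above 0, with a median of 0.47 and none with an unadjusted p under 0.05. Prc1, which bundles midzone microtubules (chromosome 7, 80294450 to 80316259), had 48.5, 19.0, 42.3 and 38.7 CPM in WT and 60.2, 99.3, 46.4, 45.2 and 39.9 CPM in null tumors. WT 2 lay above 3 of the 5 null tumors (log2 fold change 0.65, SE 0.34, edgeR adjusted p = 0.33). Anln, which encodes the contractile ring protein anillin (chromosome 9, 22332012 to 22389188), had 52.7, 25.1, 35.3 and 34.9 CPM in WT and 56.2, 74.6, 43.3, 45.2 and 37.8 CPM in null tumors. All null tumors were above WT 3, 6 and 9, and WT 2 overlapped them (log2 fold change 0.47, SE 0.27, edgeR adjusted p = 0.363). Ect2 and Racgap1 act on the small GTPase RhoA at the division plane. Ect2 was at 29.2 ± 15.2 and 41.4 ± 8.10 CPM (log2 fold change 0.50, SE 0.33), and Racgap1 at 42.6 ± 11.0 and 50.6 ± 21.0 CPM. The kinesins Kif20a, Kif4 and Kif23 had log2 fold changes of 0.57, 0.36 and 0.20, with SE of 0.38, 0.32 and 0.30.

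Genes of anaphase onset and mitotic exit had 3 of 4 fold changes above 0, with a median of 0.24. Ube2c, the ubiquitin-conjugating enzyme of the anaphase-promoting complex (chromosome 2, 164769898 to 164778822), had 40.2, 85.7, 83.6 and 54.9 CPM in WT and 76.2, 162, 86.5, 49.3 and 46.9 CPM in null tumors. WT 3, lowest for many genes, was the highest WT tumor for Ube2c (log2 fold change 0.35, SE 0.39, edgeR adjusted p = 0.639). Espl1, the separase that cuts cohesin (chromosome 15, 102296266 to 102324357), had 18.6, 10.8, 9.81 and 16.4 CPM in WT and 11.1, 29.6, 21.2, 11.5 and 12.7 CPM in null tumors. It was the one gene for which WT 6 was lowest (log2 fold change 0.31, SE 0.36, edgeR adjusted p = 0.661). Cdc20, the activator that the checkpoint restrains, was at 37.9 ± 12.6 and 43.0 ± 9.35 CPM (log2 fold change 0.18, SE 0.26). Cdca3, a trigger of mitotic entry, was at 37.5 ± 11.3 and 36.1 ± 13.9 CPM (log2 fold change −0.06, SE 0.31).

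Top2a and Mki67, whose products act on mitotic chromosomes, were among the most abundant of the 40 genes in CPM. Top2a, which encodes topoisomerase II alpha (chromosome 11, 98992943 to 99024189), had 99.2, 43.9, 94.2 and 92.0 CPM in WT and 103, 192, 164, 97.5 and 117 CPM in null tumors. WT 3 lay far below the other WT tumors, and null 18 lay just below WT 2. Means were 82.3 ± 25.8 and 135 ± 41.3 CPM (SD, n = 4 and 5; log2 fold change 0.71, SE 0.30, edgeR p = 0.0386, adjusted p = 0.264; exact two-sided permutation p = 0.0397). Mki67 (chromosome 7, 135689784 to 135716361) had 120, 35.9, 70.7 and 64.1 CPM in WT and 104, 214, 68.3, 91.2 and 73.9 CPM in null tumors. WT 2 came next to null 14 for Mki67 although its mean level over the 40 genes was 4.55, and the groups overlapped (log2 fold change 0.60, SE 0.41, edgeR adjusted p = 0.44).

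Divided by transcript length, the genes covered a wide range of levels. Ube2c was highest at a median of 78.8 CPM per kb over the 9 tumors (range 41.6 to 167), and Birc5 followed at 30.5 with a range that overlapped it. Cenpa, Ccnb2, Cdc20, Top2a and Kif23 came next at medians of 22.1, 21.9, 19.9, 19.0 and 18.6 CPM per kb, and their ranges over tumors overlapped. Espl1 at 1.90 and Cenpf at 2.00 CPM per kb were lowest, and the ranges of Ttk, Cenpe, Cdc25c and Kif4 overlapped theirs. Mki67, among the highest in CPM, stood at 7.35 CPM per kb for its transcript of 10061 bases.

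Fold changes of the members differed with transcript length, as did those of all genes. Members under 2 kb had a median log2 fold change of 0.14 (6 of 10 above 0), those of 2 to 4 kb 0.34 (16 of 18) and those over 4 kb 0.56 (12 of 12). All genes tested in the same bins had medians of −0.35, 0.0 and 0.23. Members lay above the all-gene median in each bin. WT 3 carried the largest such slope, with all-gene median deviations of 0.53, −0.16 and −0.69 log2 units from short to long, and WT 6 the next with 0.25, −0.03 and −0.29. Among members, WT 3 was the lowest of the 9 tumors for 1 of 10 under 2 kb, Cdca8, for 11 of 18 of 2 to 4 kb and for 9 of 12 over 4 kb. WT 3 was above both WT 2 and WT 9 for 6 of 10, 3 of 18 and 1 of 12, and the 1 over 4 kb was Cdk1. With each tumor's trend on length removed, an alternative chosen after seeing the data, 36 of 40 members were above 0 with a median of 0.34. At an unadjusted p under 0.05, 3 members were higher, against 1417 of all 16151 genes in that fit. The log2 fold change of Foxm1 was then 0.83 (edgeR adjusted p = 0.194), Plk1 0.92, Nek2 0.77, Top2a 0.55 (edgeR unadjusted p = 0.0649) and Mki67 0.32. Cdk1 changed sign to −0.10 and Birc5 to 0.30. Null 14 was then highest for 33 members, and WT 3 lowest for 16. What produces the slope was not tested.

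**Figure D4:**
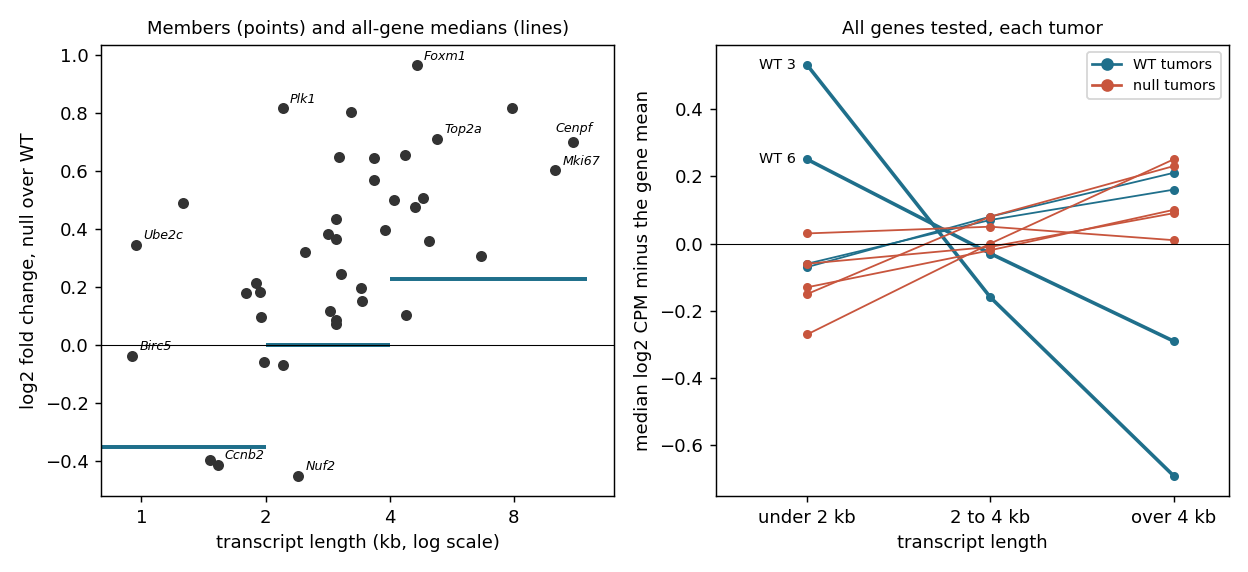
Left, log2 fold change of each member (points) against transcript length in kb on a log scale, with the median of all genes tested in each length bin (blue lines). Right, the median deviation of all genes tested from their gene means by length bin in each tumor; WT 3 runs from 0.53 to −0.69 and WT 6 from 0.25 to −0.29.

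Other cell cycle lists were read beside the members. Among all genes tested, 47.8% were above 0, and 7.64% were higher and 10.0% lower at an unadjusted p under 0.05. Of 80 other G2/M and mitosis genes, 61 had fold changes above 0 with a median of 0.26; 7 were higher and 1 lower at an unadjusted p under 0.05, and 0 passed adjustment in edgeR, against 1 with DESeq2. The smallest p belonged to Ncapd2, a condensin subunit, at 48.5 ± 9.48 and 108 ± 35.2 CPM (log2 fold change 1.15, SE 0.26, edgeR adjusted p = 0.197), and its groups did not overlap. Kntc1, a kinetochore protein, and Ncapd3, a subunit of the other condensin, followed with log2 fold changes of 1.01 and 0.57, also without overlap. Of 49 G1/S and DNA replication genes, 35 were above 0 with a median of 0.30, 18 were higher and 0 lower at an unadjusted p under 0.05, and 0 passed adjustment in edgeR, against 4 with DESeq2. At an adjusted p under 0.05, DESeq2 called 246 higher and 392 lower of all 16169 genes. Mcm2, part of the helicase that unwinds DNA for replication, had 52.2, 51.6, 84.4 and 78.7 CPM in WT and 140, 170, 146, 118 and 136 CPM in null tumors, with no overlap (log2 fold change 1.09, SE 0.22, edgeR adjusted p = 0.197). Mcm6, of the same helicase, and Chaf1a, a histone chaperone subunit, had log2 fold changes of 0.92 and 0.84, and their groups did not overlap either. The genes named were those with the smallest p of each list. Every null tumor was above every WT tumor for 3.42% of all genes tested. The count for the other G2/M genes was 3 without WT 3 or null 14, and 4 without WT 9 or null 23. The G1/S count was 13 without WT 3 or null 14, and 11 without WT 9, the lowest among single tumors left out. It was 9 without both WT 3 and null 7, and 7 without both WT 3 and null 14. All genes higher at an unadjusted p under 0.05 were 984 of 16675 without WT 3 and 1024 of 16189 without null 14. They were 1321 of 16567 without WT 9 and 963 of 15796 without null 23. Without both WT 3 and null 7 they were 792 of 16679, and without both WT 3 and null 14 they were 726 of 16713. Whether the lists differ from each other was not tested.

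Regulators of these promoters included E2f4, at 68.1 ± 6.93 and 99.0 ± 15.6 CPM (log2 fold change 0.54, SE 0.18, edgeR adjusted p = 0.223). Of 18 MuvB, B-Myb and E2F genes, 14 were above 0 and 4 were higher at an unadjusted p under 0.05, among them E2f1 and Tfdp1, an E2F and its partner, at log2 fold changes of 0.52 and 0.47. That count was 1 without WT 3, without WT 9, without null 7 and without null 14. In these fits, in that order, all genes higher were 984 of 16675, 1321 of 16567, 1085 of 16171 and 1024 of 16189. The groups of E2f4 and E2f1 did not overlap, though E2f1 was close at 21.0 CPM in WT 2 and 21.1 CPM in null 23. Those of Tfdp1 overlapped. Every null tumor was above every WT tumor for 3.42% of all genes tested. Of 20 CDK inhibitors and quiescence genes, 8 were above 0 and 1 was lower at an unadjusted p under 0.05, Ccng1, a p53 target (log2 fold change −0.84, SE 0.32, edgeR adjusted p = 0.239). The next smallest p-values there were those of Cdkn2d, an inhibitor of Cdk4 and Cdk6, and Foxo3, at log2 fold changes of −0.49 and 0.68. Of 16 genes listed for the anaphase-promoting complex and Cdh1, 10 were above 0 and 2 were lower at an unadjusted p under 0.05. These were Anapc16 and Cdc26, at log2 fold changes of −0.52 and −0.66, and Anapc10 followed at −0.71. Over the tumors left out, the 2 last counts ranged from 0 to 2. All genes lower in those fits ranged from 1103 of 16675 without WT 3 to 1955 of 16665 without WT 2. No gene of these 3 lists passed adjustment in edgeR. Among all genes tested, 47.8% were above 0, and 7.64% were higher and 10.0% lower at an unadjusted p under 0.05. Some genes were listed more than once. Fbxo5, not a subunit, was counted with the anaphase-promoting complex and with the other G2/M genes. E2f1 was also a G1/S gene, and Rb1 and Rbl2 were in both the MuvB and the CDK inhibitor list.

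The members' level was also set against the G1/S level within each tumor. The difference of mean log2 CPM was 0.22, −0.43, −0.01 and −0.08 in the WT tumors and −0.27, 0.47, −0.14, −0.17 and −0.24 in the null tumors. Null 14 was highest and WT 3 lowest by this measure too, and the other null tumors were below WT 2, 6 and 9. Group means were −0.08 ± 0.27 (SD, n = 4) and −0.07 ± 0.31 (SD, n = 5), a difference of 0.01.

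**Figure D5:**
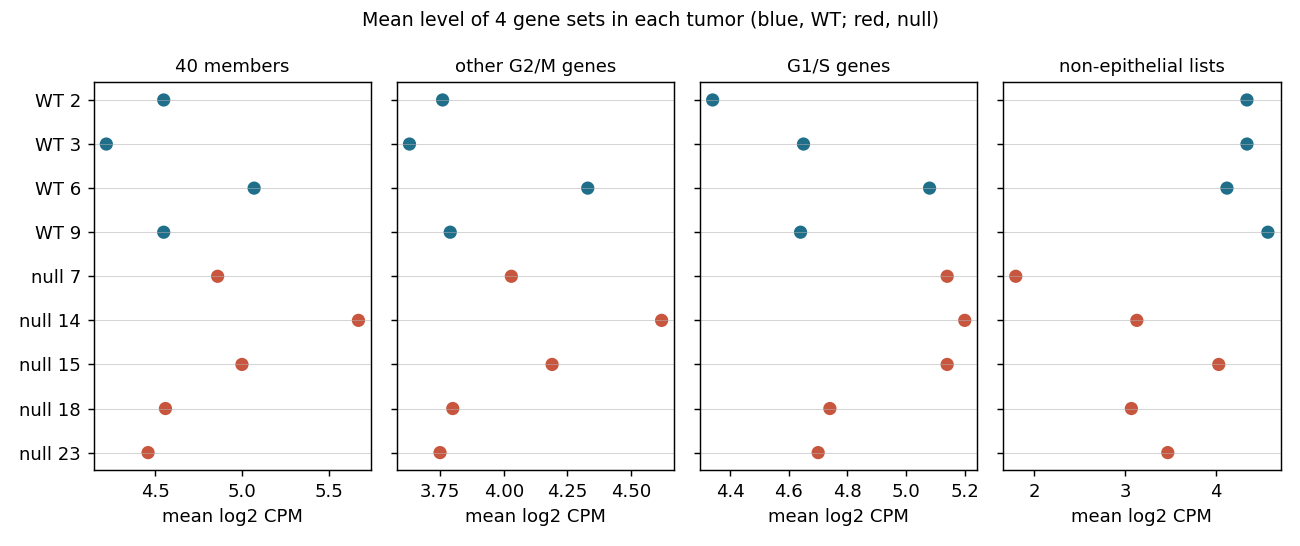
Mean log2 CPM of the 40 genes, the other G2/M genes, the G1/S genes and the non-epithelial cell type lists (one panel each) in each tumor (rows; blue, WT; red, null). The 40 genes are highest in null 14 at 5.67 and lowest in WT 3 at 4.22, and the non-epithelial level is lower in all 5 null tumors (1.80 to 4.03) than in the WT tumors (4.12 to 4.57).

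Most markers of non-epithelial cell types were lower on average in null tumors. In whole tumors, fewer cells of a type and less RNA per cell cannot be told apart. Of 61 tested markers of macrophages, neutrophils, T and NK cells, B and plasma cells, fibroblasts and endothelium, 60 were lower on average in null tumors. Of all 16169 genes tested, 8445 were lower. None of these markers passed adjustment in edgeR. The summed level of the markers was 6687 to 14824 CPM in WT and 1675 to 7575 CPM in null tumors, ranges that overlapped. No marker was at 0 in all tumors. Macrophage markers summed to 2250 to 4290 and 1110 to 2650 CPM, and fibroblast markers to 2310 to 9750 and 389 to 4690 CPM. With the mean level of these lists as a covariate, the members' median log2 fold change was 0.29, 33 of 40 were above 0 and 2 were higher at an unadjusted p under 0.05. That fit had 3.33% of all genes higher at this threshold, against 7.64% without the covariate. It gave 3 G1/S genes, in place of 18. The covariate itself did not overlap between groups, at 4.12 to 4.57 in WT and 1.80 to 4.03 in null tumors. This fit therefore cannot tell the group from the non-epithelial level, and no conclusion is drawn from its lower counts. Null 14, highest for the members, had a non-epithelial level of 3.13, within the null range. Its mean log2 CPM of the epithelial markers was 9.06, the highest of the 9 tumors, with null 15 next at 8.86. What part this had in the members' values was not tested. All 9 mitochondrial transcripts were lower on average in null tumors, summing to 17600 to 29200 CPM in WT and 6990 to 25400 CPM in null tumors, as were 6 of 7 erythroid markers. Their part in the members' values was not tested.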

How the data were processed

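RNA was measured in 9 whole tumors, 4 labelled WT and 5 labelled null. The deposited estimated counts, with a column for each tumor and a row for each Ensembl gene, were made by the authors with Salmon 1.4.0, and DESeq 2 is also named, per the submitters' processing notes, which name the builds GRCm38 and mm10. Their annotation release and strand setting are not given in the sources used. Symbols and coordinates came from GENCODE M21 (54131 of 54453 rows).

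Counts were rounded, which moved no value by more than 0.5. Low genes were left out with filterByExpr (minimum count 10, minimum total 15), leaving 16169. Groups were compared in R 4.3.3 by the quasi-likelihood test of edgeR 4.0.16, with TMM scaling and no covariate, with Benjamini-Hochberg adjustment over all genes tested. The standard error was the log2 fold change divided by the square root of F. Log2 CPM used a prior count of 2. Exact two-sided permutation tests used all 126 splits, with a smallest possible p of 0.00794. Spread between tumors (common biological coefficient of variation 0.494) and not counting limited precision. All library pairs within a group differed by more than sampling noise. Transcript length was that of the transcript with the longest coding sequence. Where the length trend was removed, genes with no coding transcript were given the length of their merged exons.

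The members and lists were chosen with earlier results of these data known. Every member was named. Values per tumor were given for up to 2 members with the smallest p in each role, for Mki67, Top2a, Ccnb1, Cdk1, Plk1 and Foxm1, and 3 genes with the smallest p were named from each other list. Alternatives were RLE or no scaling, other filters, DESeq2 1.42.0, limma 3.58.1 voom with sample weights, a non-epithelial covariate, and tumors left out. Removing the length trend (lowess span 0.3), leaving out both WT 3 and null 14, and the alternatives for the other lists were added after seeing the data. The test was also run on simulated counts drawn independently for each gene, with no outlying tumor and no length trend. That run therefore does not cover these features of the data, and its outcome is not given here.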

Additional observations from a re-analysis of the deposited data

Results flagged for a closer look

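Several members had 1 tumor far from the rest of its group, by a gap that exceeded Dixon's 95% critical value for a group of that size. Of 82 groups of values examined, 10 held such a tumor. Chance gives about 1 in 20, and values of co-expressed genes are not independent. In null 14 these were Cenpe at 58.4 CPM, Cenpf at 60.5 CPM, Kif11 at 65.0 CPM, Kif4 at 26.5 CPM and Mki67 at 214 CPM, all above the other null tumors. In WT 6 they were Ccnb1 at 58.2 CPM, Ndc80 at 27.8 CPM, Kif11 at 35.9 CPM and Dlgap5 at 36.0 CPM, all above the other WT tumors. In WT 3 it was Top2a at 43.9 CPM, below the other WT tumors.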

How the results depend on the processing

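No member passed the threshold under any of the 19 alternatives, and 21 members kept their sign under all of them. The main test called 2 genes of the whole table. That count was 7 with no filter, 638 with DESeq2, 6 with limma-voom, 0 with the non-epithelial covariate, 0 without both WT 3 and null 7, 0 without both WT 3 and null 14, and 0 to 1 with single tumors left out. The members' median log2 fold change ranged from 0.0 without both WT 3 and null 14 to 0.50 without WT 6, and was 0.16 with limma-voom. The log2 fold changes below are those that changed sign; the cause was not tested. With limma-voom they were Ccna2 −0.14, Cdk1 −0.017, Cdc25c −0.16, Aurka −0.059, Aurkb −0.21, Ttk −0.097, Bub1 −0.023 and Nusap1 −0.17. Without both WT 3 and null 14 they were Ccna2 −0.29, Ccnb1 −0.007, Cdk1 −0.15, Aurka −0.16, Aurkb −0.19, Ttk −0.16, Bub1 −0.12, Hmmr −0.036, Nusap1 −0.24, Kif4 −0.039, Kif23 −0.035, Racgap1 −0.18, Espl1 −0.078 and Mki67 −0.003. With the non-epithelial covariate they were Cdk1 −0.29, Cdc25c −0.16, Birc5 0.064, Ttk −0.055, Ndc80 0.007, Nusap1 −0.047 and Cdca3 0.04. With the length trend removed they were Cdk1 −0.10, Birc5 0.30, Ndc80 0.036 and Cdca3 0.092. Without both WT 3 and null 7 they were Aurkb −0.025, Birc5 0.10, Ttk −0.12, Ndc80 0.001 and Cdca3 0.14. With library size only they were Birc5 0.056, Ndc80 0.005 and Cdca3 0.035, and with no filter Birc5 0.01.

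With each tumor left out in turn, the log2 fold changes whose sign changed at least once ranged as follows: Ccna2 −0.20 to 0.26, Cdk1 −0.18 to 0.42, Cdc25c −0.09 to 0.37, Aurka −0.072 to 0.54, Aurkb −0.047 to 0.24, Birc5 −0.22 to 0.15, Ttk −0.049 to 0.37, Bub1 −0.013 to 0.44, Ndc80 −0.42 to 0.37, Nusap1 −0.16 to 0.46, Kif23 −0.034 to 0.46, Racgap1 −0.012 to 0.38, Ube2c −0.029 to 0.53 and Cdca3 −0.29 to 0.11.
No paired analysis was possible because the groups share no tumor numbers. Counting limited little, since the lowest count of a member was 38.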
